A study of Mus with 8 samples.

Results

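The comparison was between 3T3-L1 cells with reduced Prep1 (P cells) and their control (C cells) at day −2, before the cells were induced to become fat cells. It took in 4 of the 8 libraries of the series, 2 biological replicas of each kind of cell, and described all genes of the count table, with most room for those that differed in both replicas of P cells. 3T3-L1 is a mouse line of preadipocytes, fibroblast-like cells that turn into fat cells when they are treated with dexamethasone, isobutylmethylxanthine and insulin. C cells carried a scrambled short hairpin RNA and P cells a hairpin against Prep1, both from a pLKO.1 lentivirus with puromycin selection. At day −2 neither had received the inducing mixture, and both were grown in the same medium with calf serum. P cells are cells infected with a single hairpin, so the level of Prep1 and any other property of that infected culture cannot be told apart. The other 4 libraries, C and P cells at day 1 after induction, entered the model of the counts and are set beside the values of day −2 where they bear on them. Values of a group are given in the order replica 1, replica 2.

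Prep1, whose gene is listed as Pknox1, is a homeodomain transcription factor of the TALE class. TALE proteins bind DNA as partners of each other and of Hox proteins, and Prep1 works mainly in a complex with the Pbx proteins. Conversion of preadipocytes into fat cells runs through a cascade in which the early factors Cebpb and Cebpd precede Cebpa and Pparg, which then switch on genes of lipid uptake and storage. The question put to day −2 was which genes of P cells already stood at another level before any inducer was added.

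Between 20929962 and 27614353 reads were counted on genes in the 4 libraries. Levels are given as counts per 1000000 after scaling (CPM), on which 3 counts stand for 0.107 to 0.160 depending on the library, a floor that covers counting error only. Replica 1 of P cells stood apart from the other 3. It had counts on 16232 genes, against 18259, 18450 and 18260 in the others, and the lowest scaling factor, 0.837. Over 5600 well expressed genes its log2 difference from replica 2 had an SD of 0.795, against 0.137 between the replicas of C cells. It had 1726 genes over 2 times and 2139 under 0.5 times the mean of the C cells, where replica 2 had 487 and 381. Counts of calls in the gene lists at day −2 are therefore also given without replica 1 of P cells. In that fit, replica 2 is the lone library of its condition and is assumed to vary like the other conditions.

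Pknox1 (NCBI gene 18771) had 28.1 and 26.5 CPM in C cells against 17.3 and 18.3 CPM in P cells. Both P libraries lay below both C libraries. The log2 ratio in the model was −0.62 (standard error 0.14), and the adjusted p was 0.0558 by the quasi-likelihood test of edgeR after Benjamini-Hochberg correction. The RNA of the targeted gene was thus lower in the libraries labelled as its knockdown, by less than the ratio of 0.5 required of a call. With 2 libraries on each side the smallest p of an exact permutation test is 0.333. In the fit of the day −2 libraries alone the adjusted p of Pknox1 was 0.374, and without replica 1 or replica 2 of C cells it was 0.368 and 0.318. Fewer transcripts per cell and a mixture of cells with more and less of them cannot be told apart in RNA of whole cultures, here and for every gene below.

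A gene was called when its adjusted p was under 0.1 and its ratio of P to C cells was over 2 or under 0.5. Of 13339 genes tested, 931 were called, 6.98% of them, with 644 higher (4.83%) and 287 lower (2.15%) in P cells. In 378 of the higher genes (2.83% of all tested) the lower P library exceeded 2 times the higher C library, and in 233 of the lower genes (1.75%) the higher P library was under 0.5 times the lower C library. Genes that met this in both libraries made up 58.7% of the higher calls and 81.2% of the lower ones. Without replica 1 of P cells 912 genes were called, 554 higher (3.94%) and 358 lower (2.55%), and 668 of the 931 genes were among them. Without replica 2 of P cells, 4380 genes were called, 1959 higher (14% of those tested) and 2421 lower (17.3%). Without replica 1 or replica 2 of C cells, 193 and 188 genes were called, and in the fit of the day −2 libraries alone 81, 54 higher (0.424%) and 27 lower (0.212%). The genes called whichever of the 4 libraries was left out numbered 163, of which 117 were higher and 46 lower. With library totals in place of the scaling factors the median log2 ratio of all genes moved to −0.18, and 453 genes were higher and 365 lower, so the share of higher calls fell from 69.2% to 55.4%.

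**Figure D1:**
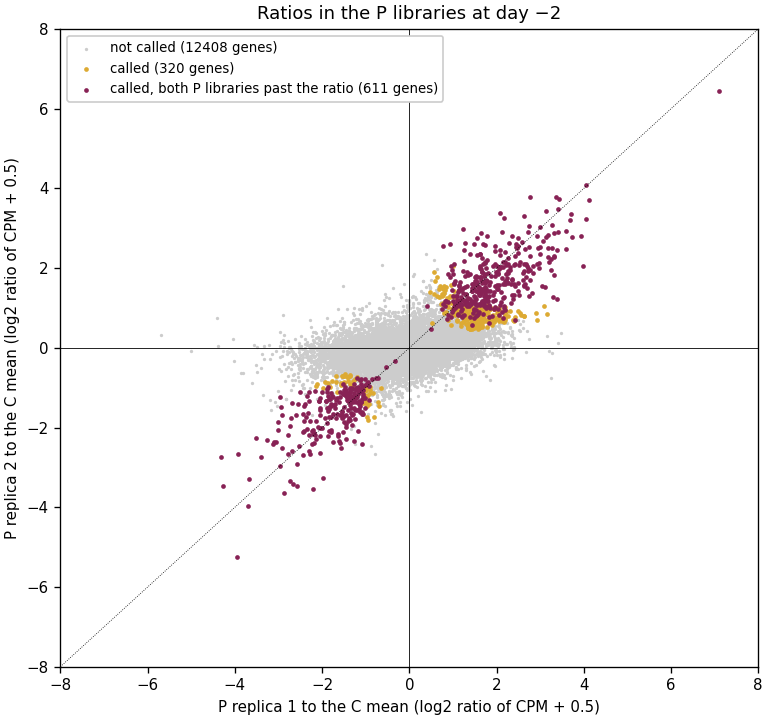
Each point is 1 of 13339 genes, with the log2 ratio of replica 1 of P cells to the mean of the C libraries on the x axis and that of replica 2 on the y axis (CPM + 0.5), and the dotted line marks equal ratios. The cloud of genes that were not called is wider along the axis of replica 1, with an SD of all ratios of 0.983 against 0.550, while the 611 genes past the ratio in both P libraries lie along the dotted line in both corners.

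The genes that differed most in both P libraries are given by name, the 12 higher and the 12 lower ones with a mean of at least 50 counts and the largest change in the less changed P library. They were taken from the genes past the ratio in both P libraries, so the separation of P and C libraries was fixed by the choice. All 12 higher genes were called whichever of the 4 libraries was left out, as were 10 of the 12 lower ones. The exceptions were Dynap and Slc14a1. These 2 genes and Akr1c18, which was not an exception, had under 10 counts in at least 1 library of P cells.

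Several of the higher genes encode proteins of the actin apparatus, some of them typical of smooth muscle. Actg2, the smooth muscle gamma actin, had 12.9 and 12.1 CPM in C cells against 139.6 and 171 in P cells (log2 ratio 3.64, standard error 0.25). Tagln, the actin-binding protein transgelin, had 18.8 and 15.9 CPM in C cells against 156 and 191 in P cells (log2 ratio 3.32, standard error 0.24). Lmod1, leiomodin, which starts actin filaments in smooth muscle, had 0.717 and 0.975 CPM against 21.8 and 12.1. Cobl, another actin nucleator, had 1.28 and 0.797 CPM against 15.3 and 20.7. The log2 ratios were 4.32 for Lmod1 (standard error 0.39) and 4.11 for Cobl (standard error 0.45). Over the 4 genes the adjusted p-values of edgeR lay between 0.00146 and 0.00461.

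A second set encodes secreted proteins and receptors. Igfbp5, which binds insulin-like growth factors outside the cell, had 4 and 1 counts in C cells against 1536 and 1444 in P cells, a ratio of 607 (exact 95% interval 259.8 to 1870.5, counting error only). Islr, a leucine-rich surface protein of mesenchymal stromal cells, had 0.279 and 0.354 CPM in C cells against 13.7 and 10.2 in P cells (log2 ratio 5.22, standard error 0.32). Tnn, the matrix protein tenascin N, had 1.91 and 1.64 CPM against 17.6 and 18.1 (log2 ratio 3.32, standard error 0.20). The replicas of P cells differed little for Tnn and more for Igfbp5, the gene with the largest ratio in its less changed P library. Avpr1a, the vasopressin receptor V1a, had 0.877 and 0.753 CPM in C cells against 12.2 and 10.6 in P cells (log2 ratio 3.79, standard error 0.32). Sorcs1, a sorting receptor of the VPS10 family, had 1.71 and 1.46 CPM against 34.4 and 34.9 (log2 ratio 4.44, standard error 0.18).

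The other 3 higher genes were an enzyme of cyclic nucleotides, a regulator of interferon signalling and a gene with no assigned function. Pde2a, a phosphodiesterase that breaks down cAMP and cGMP, had 0.956 and 1.46 CPM in C cells against 21.5 and 15.2 in P cells (log2 ratio 3.92, standard error 0.40). Usp18, which removes the ubiquitin-like protein Isg15 from its targets and restrains the interferon receptor, had 1.43 and 2.04 CPM against 28.6 and 22.5 (log2 ratio 3.88, standard error 0.24). 4930550L24Rik had 0.598 and 0.665 CPM against 11.5 and 12.2 (log2 ratio 4.22, standard error 0.22). Over all 12 genes the adjusted p-values lay between 0.000916, for Sorcs1, and 0.00461, for Cobl.

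**Figure D2:**
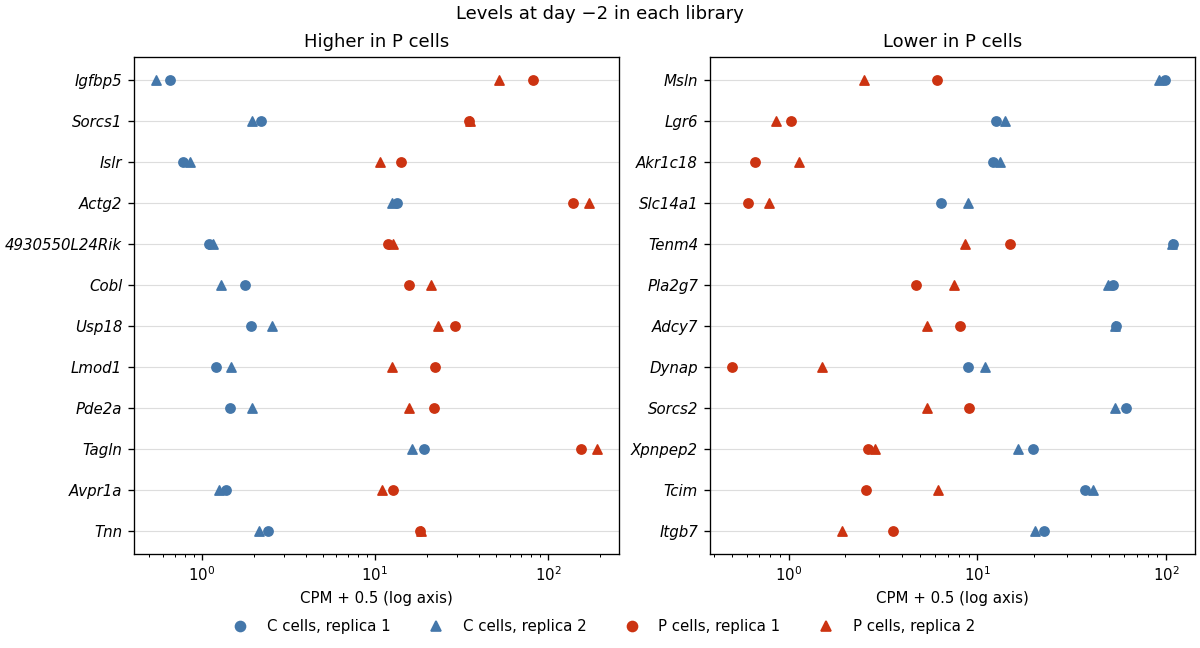
Levels of the 12 higher and the 12 lower genes at day −2, as CPM + 0.5 on a log axis, with a point for each library (C cells blue, P cells red, replica 1 circles, replica 2 triangles). In each of the 24 genes both P libraries lie on the same side of both C libraries, as the choice of genes required. Sorcs1 had 1.71 and 1.46 CPM in C cells against 34.4 and 34.9 in P cells, and Msln 97.9 and 90.8 against 5.65 and 2.00.

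Among the lower genes, several encode proteins of the cell surface. Msln, mesothelin, a surface protein anchored by a lipid, had 97.9 and 90.8 CPM in C cells against 5.65 and 2.00 in P cells (log2 ratio −4.65, standard error 0.47). Tenm4, a teneurin, a large transmembrane protein of cell contacts, had 108 and 107 CPM against 14.3 and 8.10 (log2 ratio −3.27, standard error 0.29). Itgb7, an integrin beta chain, had 22.2 and 19.7 CPM against 3.09 and 1.43 (log2 ratio −3.24, standard error 0.37). All 3 were lower in both P libraries and fell further in replica 2. Sorcs2, a relative of Sorcs1, moved the other way from it, with 60.6 and 53.4 CPM in C cells against 8.52 and 4.92 in P cells (log2 ratio −3.09, standard error 0.31). Lgr6, a receptor for R-spondins, which strengthen Wnt signals, had 304 and 306 counts in C cells against 10 and 10 counts in P cells (log2 ratio −4.86, standard error 0.44). Slc14a1, a urea transporter, had 149 and 191 counts against 2 and 8, a level lower by a ratio of 33.4 (exact 95% interval 17.9 to 70.3, counting error only).

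Enzymes and regulators made up the rest of the lower genes. Adcy7, an adenylate cyclase, one of the enzymes that make cAMP, had 54.1 and 53.5 CPM in C cells against 7.62 and 4.89 in P cells (log2 ratio −3.11, standard error 0.36). Pla2g7, which breaks down platelet-activating factor, had 51.8 and 48.6 CPM against 4.26 and 7.06 (log2 ratio −3.14, standard error 0.26). Akr1c18, a hydroxysteroid dehydrogenase that inactivates progesterone, had 293 and 286 counts in C cells against 3 and 18 in P cells (log2 ratio −4.82, standard error 0.56). In these 3 the P libraries lay below the C libraries, as the choice of genes required. Xpnpep2, an aminopeptidase, had 19.1 and 15.9 CPM against 2.13 and 2.35 (log2 ratio −2.96, standard error 0.23), and Tcim, a small transcriptional regulator, had 36.7 and 40.4 against 2.08 and 5.71 (log2 ratio −3.28, standard error 0.44). Dynap was at 0 counts in replica 1 of P cells and at 28 in replica 2, against 211 and 236 counts in C cells, and had the weakest test of the 12 (adjusted p = 0.0541). The adjusted p-values of the other 11 lay between 0.00199 and 0.00985.

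The lists of related genes are described by the number of their tested members called higher and lower, to be read against the 4.83% and 2.15% of all genes. Lists and members were chosen with earlier results of these data known, so a higher share is a description and no independent support. Median ratios of a list are medians of log2 ratios of P to C cells in the model unless a library is named, and the median of all genes was 0.01. Members were counted in more than 1 list where they belong to several.

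**Figure D3:**
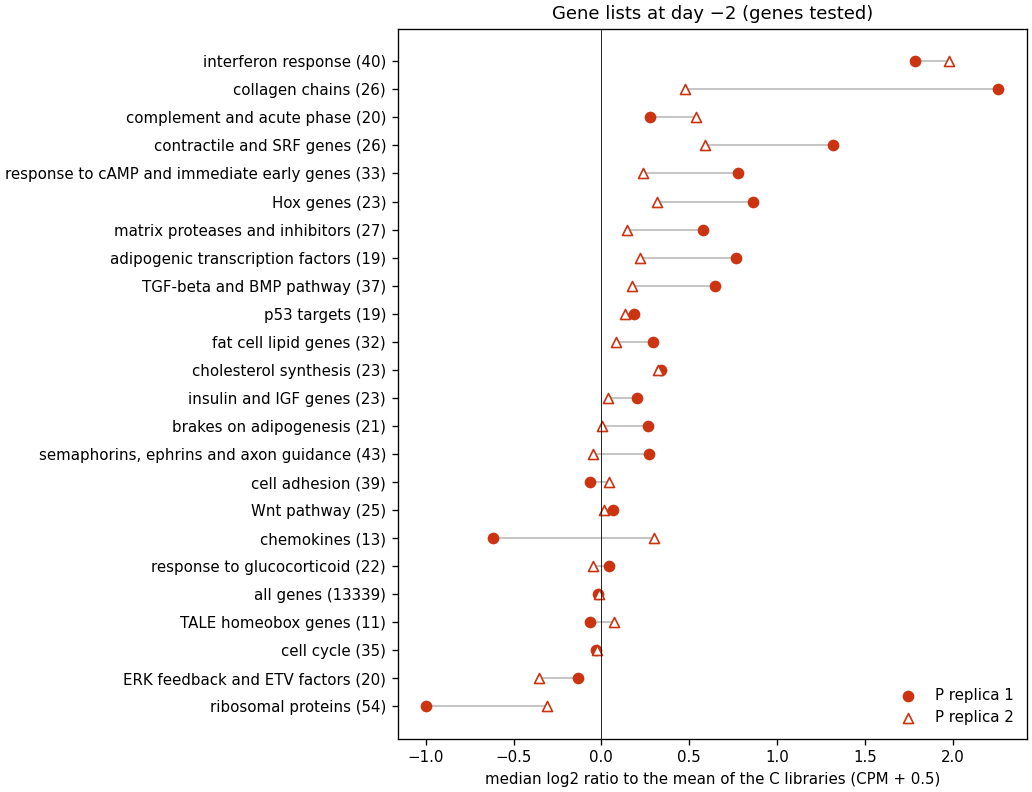
Median log2 ratio of the tested members of each list to the mean of the C libraries, in replica 1 of P cells (filled circles) and replica 2 (open triangles), with the number of genes tested in brackets and the lists in the order of the median of the model. The interferon list is far from 0 in both replicas, at 1.79 and 1.98, whereas the collagen chains stand at 2.26 in replica 1 and 0.48 in replica 2.

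Of the genes of the TALE class, Prep1 included, 11 were tested and 1, Meis3, was called, with 11.2 and 12.1 CPM in C cells against 30.1 and 22.8 in P cells (log2 ratio 1.18, standard error 0.20, adjusted p = 0.0225). Meis3 was not called without replica 1 of P cells. Pbx2, of the family of Prep1's main partners, had 72.4 and 77.2 CPM in C cells against 83.9 and 79.9 in P cells, and Meis2 had 90.9 and 93.6 against 88 and 105. The sign of the ratio of Pbx2 and Meis2 turned with library totals, and neither was called. Pbx3 and Meis1 had replica 2 of P cells within the range of C cells and replica 1 below it, with 27.9 and 34 against 19.1 and 32.6 CPM for Pbx3 and 35.9 and 43.5 against 15.2 and 40.4 for Meis1. Tgif2, a repressor of the TALE class, had 23.1 and 20.6 CPM against 49.1 and 28.7 (log2 ratio 0.83, adjusted p = 0.115). Pknox2, the closest relative of Prep1, had 10.5 and 10.4 CPM in C cells against 11.1 and 9.24 in P cells (log2 ratio −0.04, standard error 0.18), a difference smaller than its error. Pbx4 was low, at 27 and 19 counts against 23 and 17, and Tgif1 had 54.8 and 57 CPM against 40.2 and 56.6.

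Of the 39 Hox genes 23 were tested, and 5 were called, all higher. Hox genes set positional identity along the body axis, and cell lines keep part of the pattern of the tissue they came from. Hoxb9 had the clearest difference, with 8 and 6 counts in C cells against 39 and 64 in P cells (log2 ratio 2.87, standard error 0.42, adjusted p = 0.0129). Hoxc13 had 3.19 and 2.88 CPM against 9.64 and 10.1 (log2 ratio 1.70, adjusted p = 0.0823). Hoxb8 had 8 and 3 counts against 32 and 24, and these 3 genes were past the ratio in both P libraries. Hoxb6 had 0.996 and 1.86 CPM against 16 and 3.50, and Hoxb2 had 4.94 and 5.27 against 15.8 and 7.95, so that in both genes replica 2 was nearer to C cells than replica 1. In the fit of the day −2 libraries alone no Hox gene was called. Of the 5 genes, 3 were called without replica 1.

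Some regulators of fat cell formation were already higher in P cells. Of 19 adipogenic transcription factors tested, 6 were called higher and none lower, with 4 of the 6 called again and 1 other called lower without replica 1 of P cells. Cebpd, an early factor of the cascade, had 6.65 and 9.04 CPM in C cells against 64.5 and 32.9 in P cells (log2 ratio 2.63, standard error 0.34, adjusted p = 0.00819). Cebpa, which acts later with Pparg, had 0.757 and 0.842 CPM against 7.51 and 3.39 (log2 ratio 2.75, standard error 0.41, adjusted p = 0.0131). Ebf1, an early B-cell factor that also promotes fat cell formation, had 12 and 12.8 CPM against 25.9 and 39.2 (log2 ratio 1.40, standard error 0.22, adjusted p = 0.0172). These 3 were past the ratio in both P libraries, the first 2 with the higher value in replica 1 and Ebf1 with the higher value in replica 2. In the fit of the day −2 libraries alone none of the 6 was called. There the adjusted p by edgeR was 0.132 for Cebpd, 0.171 for Cebpa and 0.204 for Ebf1. Cebpb had 94 and 109 CPM in C cells against 259.5 and 169 in P cells (log2 ratio 1.08, adjusted p = 0.0453), and Egr2 and Zfp467 were also called without passing the ratio in both libraries. The log2 ratio of Cebpb was 0.75 without replica 1 of P cells, which is not a call, and its adjusted p by edgeR was 0.342 and 0.257 without replica 1 and replica 2 of C cells. Pparg itself was not called, with 19.2 and 19.5 CPM in C cells against 12.1 and 21.2 in P cells, which put the C libraries between the P libraries. Srebf1 had 63 and 57.8 CPM against 105 and 59.97, and Klf4 and Klf5 had log2 ratios of −0.78 (adjusted p = 0.131) and −0.52 (adjusted p = 0.160).

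Genes of lipid uptake and storage were called for a minority of the list. Of 32 tested, 6 were called higher and none lower, 5 of them past the ratio in both P libraries and 5 of them called again without replica 1 of P cells, which left 2 others called lower. Lpl, the lipase that frees fatty acids from lipoproteins, had 58.6 and 57.7 CPM in C cells against 183 and 200.1 in P cells (log2 ratio 1.72, standard error 0.14, adjusted p = 0.00200). Fabp4, a fatty acid carrier of fat cells, had 2.07 and 2.35 CPM against 28.4 and 19.8 (log2 ratio 3.44, standard error 0.30, adjusted p = 0.00242). Lpl and Fabp4 were the 2 members called whichever of the 4 libraries was left out. Plin1, which coats lipid droplets, had 1 and 2 counts in C cells against 91 and 47 in P cells, a ratio of 46.8 (exact 95% interval 15.7 to 229.9, counting error only). Cd36, a fatty acid receptor, had 4 and 5 counts against 21 and 140, higher in replica 2 than in replica 1. Adipoq, the fat cell hormone adiponectin, was called from 1 and 1 counts in C cells against 5 and 7 in P cells, a ratio of 6.11 (exact 95% interval 1.36 to 56.2, counting error only). The main enzymes of fatty acid synthesis were not called, with 1080.2 and 951 CPM in C cells against 1605 and 849 in P cells for Fasn and 495 and 444 against 566 and 492 for Acly. Cfd and Cidec, which are high in mature fat cells, had at most 3 and 12 counts in any library of day −2.

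**Figure D4:**
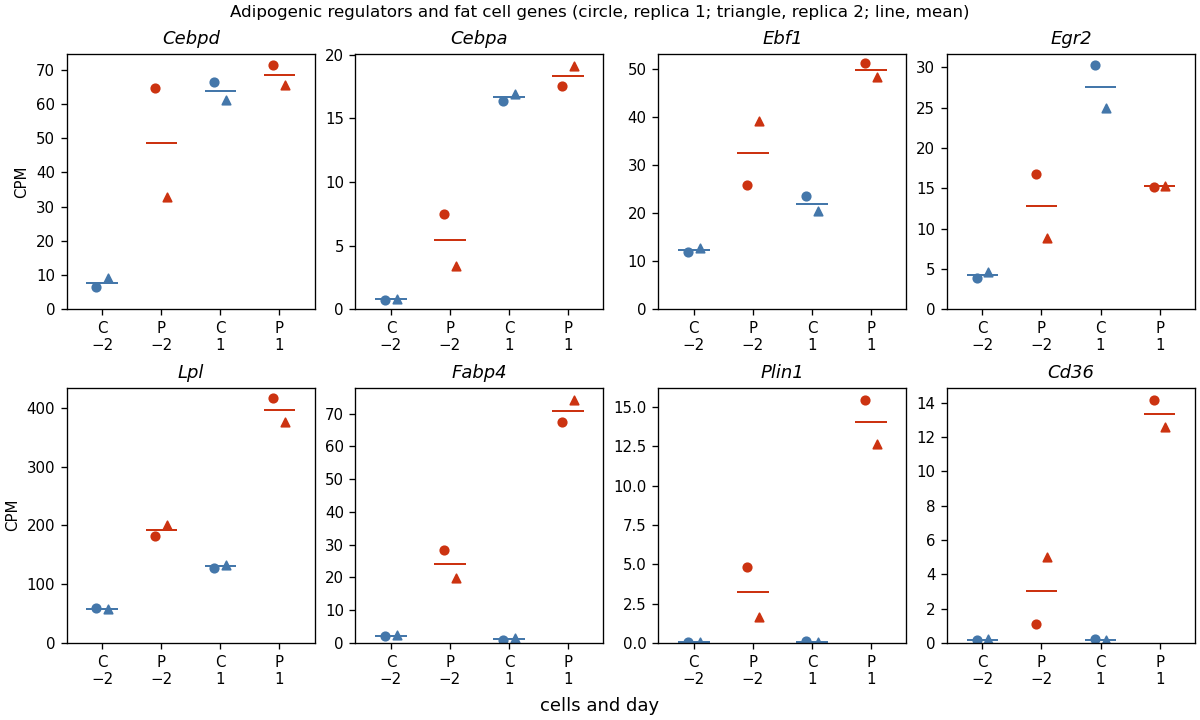
CPM of 4 regulators (upper row) and 4 fat cell genes (lower row) in all 8 libraries, by cells and day (C blue, P red), with circles for replica 1, triangles for replica 2 and a line at the mean of each condition. At day −2 the P libraries lie above both C libraries in all 8 genes, while at day 1 the libraries of P and C cells are close for Cebpd and Cebpa and further apart than at day −2 for Fabp4.

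Of the 21 genes tested in the list of inhibitors of adipogenesis, 2 were called higher and none lower, against 1 higher and 2 lower without replica 1 of P cells. Id3, an inhibitor of helix-loop-helix factors, had 146 and 138 CPM in C cells against 396 and 221 in P cells, and Klf2, a zinc finger repressor of Pparg, had 3.67 and 4.56 against 15.2 and 6.99. Both were carried by replica 1 and were not called without it. Dlk1, the preadipocyte protein also named Pref1, had 861 and 974 CPM in C cells against 857 and 645 in P cells (log2 ratio −0.29, adjusted p = 0.334).

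Genes that respond to the signals of the inducing mixture were compared before it was added. In the list of cAMP response and immediate early genes, 33 were tested, 11 were called higher and 4 lower, with medians of 0.78 in replica 1 and 0.24 in replica 2. Without replica 1 of P cells 7 were called higher and 5 lower. Egr1, an early growth response factor, had 34.7 and 39.3 CPM in C cells against 150.2 and 112 in P cells (log2 ratio 1.82, standard error 0.18, adjusted p = 0.00346). Btg2, an antiproliferative gene, had 10.2 and 10.2 CPM against 76 and 44.2 (log2 ratio 2.55, standard error 0.26, adjusted p = 0.00377). Nr4a1, an orphan nuclear receptor, had 39.7 and 37.2 CPM against 135 and 93.3 (log2 ratio 1.57, standard error 0.22, adjusted p = 0.0111). In all 3 both P libraries were above both C libraries, and replica 1 was the higher. Fos had 25.7 and 38 CPM in C cells against 317 and 78.3 in P cells and Fosb had 36.2 and 67 against 464 and 93.7, so their levels in replica 1 were several times those in replica 2. The members that fell were Nr4a2, Ier3, Dusp2 and Areg, the last from 12 and 14 counts in C cells to 1 and 1. Dusp2, a phosphatase of the MAP kinases, had 2.27 and 2.66 CPM against 0.586 and 0.285 (log2 ratio −2.53, adjusted p = 0.0306).

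Of 22 genes of the glucocorticoid response, 3 were called higher, namely Cebpd, Cdkn1a and Per1, and only Cebpd was past the ratio in both P libraries. Without replica 1 of P cells 2 of the list were called higher, Cdkn1a and Per1 not among them, and 1 lower. In the insulin and IGF list 4 of 23 tested genes were called higher and 1 lower, and all of these except Igfbp7 were past the ratio in both P libraries and were called whichever of the 4 libraries was left out. When replica 1 of P cells was left out, 3 were called in each direction. Grb14, which binds and inhibits the insulin receptor, had 16.3 and 15.3 CPM against 68 and 81.2 (log2 ratio 2.24, standard error 0.17, adjusted p = 0.00162). Igfbp6, which binds mainly IGF2, went the other way from Igfbp5, with 24.9 and 23 CPM in C cells against 4.85 and 4.14 in P cells (log2 ratio −2.42, standard error 0.24, adjusted p = 0.00349). The receptors Insr and Igf1r and the substrates Irs1 and Irs2 were not called.

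Among the lists, whose members were chosen with earlier results of these data known, the interferon response had the largest share of called members. All 40 genes of the list were tested, and 29 of them (72.5%) were called higher and 1 lower, with 27 of the 29 past the ratio in both P libraries. The median ratio was 2.08, with 1.79 in replica 1 and 1.98 in replica 2. Without replica 1 of P cells 31 were called higher and 1 lower, without replica 2 28 and 2, and in the fit of the day −2 libraries alone 9 were called, all higher. The genes called in the full fit included carriers of the interferon signal and its antiviral effectors, and 21 of the 29 were called whichever of the 4 libraries was left out. Stat2, which carries the interferon signal to the nucleus, had 14.6 and 16.4 CPM in C cells against 57.2 and 42.6 in P cells, and Irf9, which binds DNA with it, had 11 and 13 against 33.4 and 37.5. Irf7, which amplifies the response, had 1.12 and 1.02 CPM against 11.5 and 10.5 (log2 ratio 3.35, standard error 0.19, adjusted p = 0.00108). In each of these 3 regulators both P libraries were over 2 times both C libraries.

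The effectors of the interferon response rose with them. Oas2, an enzyme that senses double-stranded RNA, had 7 and 6 counts in C cells against 78 and 122 in P cells (log2 ratio 3.94, standard error 0.23, adjusted p = 0.00108). Isg15, a ubiquitin-like modifier, had 4.38 and 3.28 CPM against 38.6 and 30.6, and Bst2, which tethers budding viruses to the membrane, had 15.6 and 15.6 against 109.8 and 62.2. Psmb8, a subunit of the immunoproteasome, had 0.917 and 0.310 CPM against 10.5 and 7.74, and Tap1, a peptide transporter of antigen presentation, had 6.62 and 6.11 against 44.7 and 26.8. Guanylate-binding proteins were among them, with 1.91 and 1.91 CPM in C cells against 13.1 and 15.8 in P cells for Gbp2 and 1.43 and 1.02 against 13.4 and 9.49 for Gbp3. The exception was Isg20, an exonuclease, which fell from 5.30 and 4.34 CPM to 1.76 and 1.03 (log2 ratio −1.80, adjusted p = 0.0347). Ifit2, Irf1, Mx1, Rsad2, Gbp4, Gbp5, Irgm1, Ddx58, Ifih1 and Trim25 were not called.

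At day 1 the interferon genes did not stand higher in P cells. At day −2 the summed level of the list was 378 and 379 CPM in C cells, against 1089 and 990.1 in P cells. A day after induction it was 1875 and 2025 CPM in C cells, against 1386 and 1340.3 in P cells. C cells at day 1 thus had the highest sum, and P cells at day −2 lay between C cells of the 2 days. At day 1 none of the 40 genes was called higher in P cells and 7 were called lower, where 1.83% and 2.23% of all genes were called. The difference between the ratios of the 2 days was called for 29 members, each with the lower ratio at day 1, against 1.93% of all genes. As the members were chosen with earlier results of these data known, this is a description. Oas2, for example, had 32.6 and 34.9 CPM in C cells against 12 and 10.9 in P cells at day 1 (log2 ratio −1.56, adjusted p = 0.00597).

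**Figure D5:**
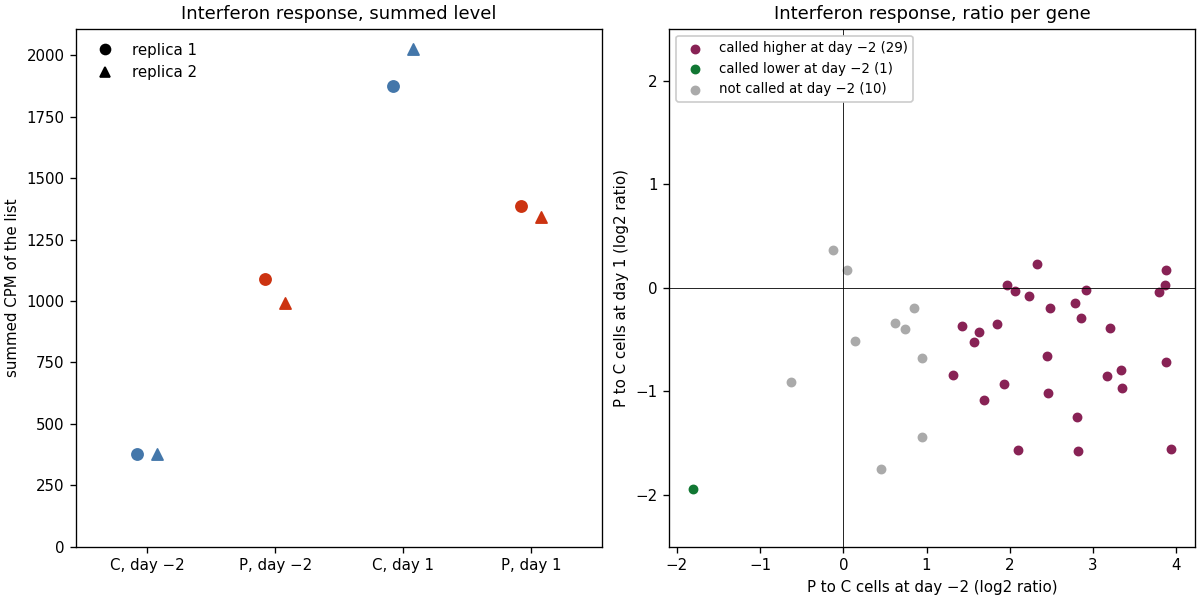
Left, summed CPM of the 40 interferon response genes in each of the 8 libraries (C blue, P red, replica 1 circles, replica 2 triangles), and right, each gene's log2 ratio between P and C cells at day −2 (x axis) and at day 1 (y axis), coloured by its call at day −2. The P libraries have 1089 and 990.1 CPM at day −2 against 378 and 379 in C cells, and the 29 genes called higher at day −2 lie at or below a ratio of 0.23 on the log2 scale at day 1.

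Genes of complement and the acute phase were partly higher as well, with 6 of 20 called higher and 1 lower, and with 10 and 1 without replica 1 of P cells. Ptx3, a pentraxin secreted in inflammation, had 23.5 and 23.3 CPM in C cells against 366 and 166 in P cells (log2 ratio 3.51, standard error 0.39, adjusted p = 0.00483). Hp, haptoglobin, had 5 and 3 counts in C cells against 69 and 90 in P cells, a ratio of 20.2 (exact 95% interval 10.03 to 47.7, counting error only). C1qtnf1, a secreted relative of adiponectin, fell from 4.18 and 4.83 CPM to 1.28 and 1.28 (log2 ratio −1.81, adjusted p = 0.0452). Of 13 chemokine genes tested 1 was called, Cxcl12, the ligand of the receptor Cxcr4, with 239 and 230.2 CPM in C cells against 529 and 499 in P cells (log2 ratio 1.13, standard error 0.13, adjusted p = 0.00530). Cxcl10, which interferon induces in many cells, was not called. When replica 1 of P cells was left out, 2 chemokine genes were called higher and 1 lower.

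Collagen chains were the list whose medians in the 2 replicas of P cells lay furthest apart, 2.26 and 0.48. Of 26 tested, 11 were called higher and none lower, 6 of them past the ratio in both P libraries. In the fit without replica 1 of P cells 6 were called higher and 1 lower. The summed level of the collagen genes was 21441 and 19301 CPM in C cells against 109337 and 30931 in P cells. Replica 1 of P cells thus had several times the level of any other library of day −2. Col1a1, a chain of the main fibrillar collagen, had 3934 and 3296 CPM in C cells against 23559.5 and 4882 in P cells and was not called (log2 ratio 1.98, adjusted p = 0.122). Chains past the ratio in both P libraries included the following minor collagens. Col12a1, which lies along fibrils, had 168 and 169.8 CPM against 569.7 and 674 (log2 ratio 1.88, standard error 0.15, adjusted p = 0.00200), and replica 2 had the higher level. Col15a1, of the basement membrane zone, had 0.797 and 0.709 CPM against 16.1 and 8.10 (log2 ratio 3.99, standard error 0.38, adjusted p = 0.00301). Col8a1 had 16.6 and 18 CPM against 164 and 78.3, and Col23a1, a transmembrane collagen, 0.956 and 0.620 against 8.68 and 4.25. Col12a1 and Col15a1 were the 2 chains called whichever of the 4 libraries was left out.

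Enzymes that cut the matrix moved in both directions, with 7 of 27 called higher and 3 lower, and 6 and 3 without replica 1 of P cells. Most of the higher ones were secreted proteases of the ADAMTS family. The family did not move as a whole, as Adamts7 was called lower and Adamts4, Adamts6, Adamts10, Adamts15, Adamts16 and Adamts20 were not called. Adamts9 had 7.13 and 7.93 CPM in C cells against 69.9 and 55.1 in P cells (log2 ratio 3.05, standard error 0.21, adjusted p = 0.00146), Adamts1 had 176 and 173 against 763 and 595, and Adamts5, which cuts aggrecan, 27.9 and 23.8 against 80.7 and 89.4. Timp3, an inhibitor of matrix proteases that is itself bound to the matrix, fell from 29.4 and 30.1 CPM to 8.95 and 8.42 (log2 ratio −1.78, standard error 0.16, adjusted p = 0.00267). Mmp3, stromelysin, fell from 32.6 and 36.5 CPM to 6.55 and 10.9 (log2 ratio −1.98, adjusted p = 0.0115).

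Adhesion molecules split into a higher and a lower set, 6 and 5 of 39 tested, with 6 and 6 without replica 1 of P cells. Lama4, a laminin chain found around fat and endothelial cells, had 39.1 and 34.4 CPM in C cells against 199 and 182 in P cells (log2 ratio 2.38, standard error 0.15, adjusted p = 0.00108). A pair of laminin receptors went the other way. Itga6 had 69.2 and 67.8 CPM against 12.5 and 15.8 (log2 ratio −2.28, standard error 0.16, adjusted p = 0.00162), and Itga3 had 71.9 and 63.9 against 12.1 and 10.1 (log2 ratio −2.62, standard error 0.24, adjusted p = 0.00276). Alcam, a cell adhesion molecule of the immunoglobulin family, had 84.6 and 89 CPM against 15.8 and 24 (log2 ratio −2.12, standard error 0.22, adjusted p = 0.00394). All 5 lower genes, which also included Itgb7 and Lama5, were past the ratio in both P libraries. The higher set further held the integrin chains Itga1, Itga9 and Itga11, the laminin chain Lamc1 and Cdh11.

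The contractile genes seen among the largest changes belonged to a wider set. Of 26 contractile genes and targets of the serum response factor tested, 12 were called higher and none lower, and without replica 1 of P cells 8 higher, 7 of them among the 12, and none lower. Of the 12 called, 7 were past the ratio in both P libraries, and 6 were called whichever of the 4 libraries was left out. Acta2, the smooth muscle alpha actin, had 439 and 404 CPM in C cells against 2053 and 2599 in P cells (log2 ratio 2.46, standard error 0.17, adjusted p = 0.00146). Myl9, a myosin light chain, had 34 and 32 CPM against 207 and 334 (log2 ratio 3.04, adjusted p = 0.00276). In both genes replica 2 of P cells had the higher level, unlike in most collagens. The tropomyosins Tpm1, Tpm2 and Tpm4 were carried by replica 1, with 765 and 676 CPM in C cells against 1953 and 1131 in P cells for Tpm1. Srf, the factor itself, and its early targets Ccn1 and Ccn2 were not called.

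In the list of semaphorins, ephrins and other guidance genes 4 of 43 were called in each direction, and 4 and 5 without replica 1 of P cells. Epha3, an ephrin receptor, had no count in either C library and 54 and 178 counts in P cells, at least 36.5-fold higher when C libraries are set to 3 counts each. Slit3, a secreted guidance cue, had 25.2 and 25.9 CPM in C cells against 166 and 112 in P cells (log2 ratio 2.45, standard error 0.21, adjusted p = 0.00242). The lower genes were mostly semaphorins. Sema5a had 27.3 and 31.4 CPM against 4.10 and 4.49 (log2 ratio −2.77, standard error 0.16, adjusted p = 0.00108), Sema3f had 47.1 and 50.3 against 9.96 and 8.67, and Sema7a had 34.4 and 39.6 against 5.96 and 6.28. In each of these the P libraries were close to each other and far below the C libraries. Among the semaphorins that were not called were Sema3a, Sema3c, Sema4b and Sema6d.

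In the Wnt pathway 4 of 25 tested genes were called higher and 3 lower, and 3 and 5 without replica 1 of P cells. The Wnt ligands that were called fell. Wnt10a, an inhibitor of adipogenesis, had 16 and 18 counts in C cells and none in P cells, at least 5.38-fold lower when P libraries are set to 3 counts each, and Wnt4 had 2.27 and 1.64 CPM against 1.07 and 0.713 (log2 ratio −1.17, adjusted p = 0.0522). Wnt10b, its close relative, was not called. Among receptors, Fzd4 had 1.79 and 1.77 CPM in C cells against 6.82 and 9.31 in P cells (log2 ratio 2.18, standard error 0.22, adjusted p = 0.00352), while Lgr6 fell as given above. Sfrp2, a secreted protein that binds Wnt ligands, had 5.62 and 6.03 CPM against 65.1 and 34.4 (log2 ratio 3.09, standard error 0.33, adjusted p = 0.00404). Rspo3, a ligand of the Lgr receptors, had 3 and 3 counts against 19 and 47, a ratio of 11.2 (exact 95% interval 4.88 to 31.6, counting error only).

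In the TGF-beta and BMP pathway 11 of 37 tested genes were called higher and 1 lower, and 8 and 1 without replica 1 of P cells. The single lower gene was the receptor Tgfbr2, with 154 and 148 CPM in C cells against 59 and 53 in P cells (log2 ratio −1.43, standard error 0.13, adjusted p = 0.00276). Several of the higher genes encode inhibitors of the pathway. Fst, follistatin, which binds activins, had 9.01 and 11.2 CPM against 87.7 and 66.9 (log2 ratio 2.94, standard error 0.21, adjusted p = 0.00154). Smad6, an inhibitory Smad, had 9.25 and 12.1 CPM against 96.8 and 31.5, and Bambi, a receptor that does not signal, 2.59 and 2.92 against 6.18 and 5.60. Neither the ligands Tgfb1, Tgfb2 and Tgfb3 nor the receptor-regulated Smad1, Smad2 and Smad3 were called.

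Among genes that report or restrain ERK signalling, 2 of 20 were called higher and 3 lower, and 2 and 2 without replica 1 of P cells. Spry1, a feedback inhibitor of receptor tyrosine kinases, had 10.00 and 9.35 CPM in C cells against 58.3 and 44.7 in P cells (log2 ratio 2.41, standard error 0.19, adjusted p = 0.00200). Etv4, an ETS factor, fell from 112 and 105 CPM to 50.5 and 44.3 (log2 ratio −1.19, adjusted p = 0.0163), and the phosphatase Dusp4 from 52.9 and 48.4 to 24 and 15.6 (log2 ratio −1.36, adjusted p = 0.0217).

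In the cell cycle list 2 of 35 were called, both higher, a share of 5.71% against 4.83% of all genes. These were Cdkn1a and Cdkn2c, inhibitors of cyclin-dependent kinases, and neither was past the ratio in both P libraries. Cdkn1b, Cdkn2a and Cdkn2b, which also encode such inhibitors, were not called. Cdkn2c had 7.05 and 5.72 CPM in C cells against 11.9 and 19.3 in P cells (log2 ratio 1.29, adjusted p = 0.0436), and the median of the list was −0.06. Of 19 targets of p53, 4 were called higher, among them the death gene Bbc3, with 7.29 and 6.16 CPM in C cells against 33.3 and 13.2 in P cells, and the stress gene Sesn2, with 30.2 and 31 against 100.02 and 50.7. Both were highest in replica 1 of P cells. Without that library the log2 ratio was 0.98 for Bbc3, 0.74 for Sesn2 and 0.84 for Cdkn1a, each short of a ratio of 2. It was 2.12 for Btg2, the remaining called target. Among the p53 targets not called were Mdm2, Ccng1, Bax and Gadd45a. Without replica 1 of P cells 2 of the p53 targets and 1 cell cycle gene were called, all higher. Of 23 genes of cholesterol synthesis 1 was called, Mvk, with 46 and 41.5 CPM against 116 and 63, and without replica 1 of P cells another was called higher in its place. Among P cells, the median log2 ratio of ribosomal protein genes was −1.0 for replica 1 and −0.31 for replica 2, and 37 of 54 lay below both C libraries in both, as did 27.3% of all genes. Of the 54, 2 were called lower, Rps12 with 666 and 547 CPM in C cells against 193 and 279 in P cells and Rps28 with 297 and 341 against 121 and 192, and 1, Rps12, was called without replica 1. With library totals the median of the ribosomal genes was −0.70, that of the interferon genes 1.88, of the collagens 1.41 and of the contractile genes 0.77, each to be read against −0.18 for all genes. Ribosomal protein genes have many processed copies in the genome, and the way reads with several matches were counted is not given in the sources used here.

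Markers were used to check the labelled cell type. Those of preadipocytes and fibroblasts were abundant in every library, with at least 518 counts for 9 of the 10 markers, and their summed level was between 16127 CPM, in C cells, and 78403, in replica 1 of P cells. Thy1, a surface protein of fibroblasts, had 140.4 and 134 CPM in C cells against 941 and 684 in P cells (log2 ratio 2.57, standard error 0.19, adjusted p = 0.00162), and Pdgfrb, a receptor of platelet-derived growth factor, had 164 and 149.8 against 542 and 362 (log2 ratio 1.53, standard error 0.21, adjusted p = 0.0101). Cd34, a marker of progenitors, had 44 and 40 counts in C cells against 2 and 3 in P cells, a level lower by a ratio of 16.5 (exact 95% interval 6.80 to 52.1, counting error only). Pdgfra and Dlk1 were not called. The summed level of 7 adipocyte markers was 2.43 and 2.75 CPM in C cells against 34.1 and 22.5 in P cells, of which Fabp4 was the greater part, and 3 of the 6 tested, Fabp4, Plin1 and Adipoq, were called higher.

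Defining markers of other cell types were low. Of the macrophage markers Adgre1 and Ptprc had at most 4 and 8 counts in any library, Itgam had 37 counts in replica 1 of P cells and at most 8 in the others, Csf1r fell from 5.74 and 4.96 CPM to 2.13 and 1.53, and Lyz2 rose from 7 and 2 counts to 31 and 126. The summed macrophage level was between 6.82 and 8.33 CPM in all 4 libraries. Endothelial markers summed to 1.63 and 1.86 CPM in C cells against 0.426 and 1.07 in P cells, with none called. Myod1, Myog, Epcam, Sox10 and Snap25 had at most 3 counts in any library. Of the epithelial markers Krt8 was called, with 78 and 53 counts in C cells against 3 and 6 in P cells. No marker of skeletal muscle, neural cells or bone and cartilage was called, though Sox9, Tubb3 and Des, which fibroblasts can also express, had between 73 and 2649 counts. The part of rare cells of another type in the ratios of single genes was not tested.

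The libraries of day 1 were set beside the genes past the ratio in both P libraries at day −2. Of the 378 genes higher in both P libraries at day −2, 114 were also called higher in P cells at day 1, where 1.83% of all genes were, and 12 were called lower. Of the 233 lower genes, 64 were also called lower at day 1, where 2.23% of all genes were, and 3 were called higher. The sign was the same on both days for 281 of the 378 and 188 of the 233. The difference between the 2 days was called for 132 of the higher and 30 of the lower genes, where the ratio was higher at day 1 for 0.435% and lower for 1.93% of all genes tested. The median log2 ratio of the higher genes was 2.20 at day −2 and 0.75 at day 1, and that of the lower genes −2.10 and −0.78. The genes were chosen on their day −2 values, which by itself favours a smaller ratio at day 1, so the medians and the counts of called differences are a description.

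Genes with a ratio at day 1 close to that of day −2 included Lpl (log2 ratio 1.72 at day −2 and 1.60 at day 1), Adamts5 (1.72 and 1.69), Hoxb9 (2.87 and 2.78), Acta2 (2.46 and 2.75), Tagln (3.32 and 3.88) and Xpnpep2 (−2.96 and −2.58). None of these 6, named after their values were seen, was called for a difference between the days. Of the contractile genes 6 were called higher at day 1, although Acta2 stood at 14.9 and 14.5 CPM in C cells against 99.4 and 98 in P cells. Of the fat cell lipid genes 13 of 32 were called higher at day 1, against 6 at day −2, and Plin1 had 15.5 and 12.7 CPM in P cells while C cells stood at 0.118 and 0.0398. Cebpd and Cebpa, in contrast, no longer differed by a call at day 1, with log2 ratios of 0.10 (adjusted p = 0.940) and 0.14 (adjusted p = 0.924), with C cells at 66.5 and 61.2 and 16.4 and 16.9 CPM.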

How the data were processed

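RNA of C and P cells at day −2 and day 1 was sequenced in 2 biological replicas each, 8 libraries in all. The deposited file holds raw counts of reads per gene, which the authors made by aligning trimmed reads to the mouse genome mm9 with TopHat2 2.0.9 and counting them on UCSC refGene models with Bioconductor packages. How reads of either strand, or with several matches, were counted is not given in the sources used here, so overlapping genes and near-identical copies are uncertain. Symbols were assigned to 23929 of 24013 genes by NCBI gene number.

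Counts were fitted with the quasi-likelihood model of edgeR 4.0.16 (R 4.3.3, limma 3.58.1) over all 8 libraries, with 4 conditions, TMM scaling and the low-count filter of filterByExpr, which left 13339 genes, and p-values were adjusted by Benjamini-Hochberg over them. Library totals ran from 20428816 to 27614353 counts. For each gene all libraries share 1 estimate of the spread. Over well-expressed genes the log2 difference between replicas had an SD of 0.795 in P cells at day −2. It was 0.137 in C cells at day −2, and 0.261 in C cells and 0.121 in P cells at day 1. A shared estimate can therefore make the standard errors and adjusted p-values of day −2 too small. SE is the log2 ratio over the root of F. Tested on simulated data for P against C cells at day −2 (13339 genes, 200 of them changed 4-fold, 3 sets), the call recovered 84.5% to 88% of the changed genes with 11 to 19 false calls. The simulated libraries of all conditions shared 1 spread per gene, and none stood apart as replica 1 of P cells did. These rates therefore do not carry over to the day −2 libraries. Genes named were Pknox1, the 12 higher and 12 lower genes described in the report, all TALE genes and up to 4 called genes of lowest p per list; others are named as examples or exceptions of a list. Of the 106 genes this gave, 6 are not reported here. The 31 lists hold 728 genes. The members and lists were chosen with earlier results of these data known. Exact 95% intervals of ratios of low counts cover counting error only, and at least N-fold values set libraries at 0 to 3 counts. Alternatives were DESeq2 1.42.0, its size factors, library totals, other filters, the day −2 libraries alone, a replicate block, other thresholds and each library left out. Figures were drawn with matplotlib 3.10.9.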

Additional observations from a re-analysis of the deposited data

Results flagged for a closer look

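Of the 106 genes named by the rule, 41 had a ratio of P to C cells that differed between day 1 and day −2 in a direct test of that difference in the same model (adjusted p under 0.1, reached by 0.435% of all genes with a higher and by 1.93% with a lower ratio at day 1). The values of 38 are given, as log2 ratios at day 1 minus those at day −2, so a negative value means that P cells stood lower against C cells at day 1 than before induction.

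Most of these genes were named for a large ratio or a low p at day −2, and the difference subtracts that same ratio, so the choice itself favours a smaller ratio at day 1 and the shares of all genes are no fair comparison. Among the genes with the largest changes the value was −6.21 for Igfbp5, −2.84 for Sorcs1, −4.86 for Islr, −4.59 for Usp18, −2.93 for Pde2a, −2.66 for Avpr1a and −4.55 for Tnn. Pde2a was low at day 1, with 0.631 and 0.279 CPM in C cells against 0.983 and 0.840 in P cells. Among regulators of fat cell formation and early response genes it was −2.53 for Cebpd, −2.61 for Cebpa, −2.44 for Egr2, −1.96 for Egr1, −2.31 for Btg2, −2.74 for Nr4a3 and −2.01 for Nr4a1. The interferon genes gave −4.32 for Irf7 and −5.50 for Oas2, and the acute phase genes −4.91 for Hp and −3.32 for Ptx3. Genes of insulin and growth factor signalling gave −1.20 for Grb14, −2.11 for Fst and −2.45 for Spry1. Genes of the matrix, adhesion and guidance gave −1.09 for Col12a1, −5.01 for Col23a1, −2.09 for Adamts9, −1.67 for Adamts1, −1.54 for Lama4 and −1.99 for Slit3, and the surface marker Thy1 gave −1.96. Timp3, which was lower in P cells at day −2, gave −1.94 and was lower still at day 1.

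The ratio stood higher at day 1 for the other genes. For genes lower in P cells at day −2 it was 4.46 for Lgr6, 1.79 for Igfbp6, 1.46 for Itga6, 1.70 for Alcam, 2.83 for Sema5a, 1.21 for Sema3f and 0.90 for Tgfbr2. Lgr6 was near the floor in every library of day 1, with 0.158 and 0.199 CPM in C cells against 0.214 and 0.0467 in P cells. For the fat cell genes higher in P cells on both days it was 2.57 for Fabp4 and 5.24 for Adipoq.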

How the results depend on the processing

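Among 931 calls at day −2, 611 of them in both P libraries, 163 were list members and 96 were among the 106 genes named by the rule. Of the 106, 45 were called at day 1 and 41 differed between the days. With the day −2 libraries alone, which leaves 2 libraries on each side to estimate the spread, 81 genes were called, all 81 past the ratio in both P libraries, with 36 list members and 43 named genes. A minimum of 10 counts in every library left 371 calls past the ratio in both P libraries and 29 named calls at day 1, and it removes genes that are at or near 0 in 1 group. An adjusted p under 0.05 left 602 calls and 27 named differences between the days, and without a threshold on the ratio 1513 genes were called. DESeq2 called 1265 genes, its size factors gave 919, and no filter gave 1051. Library totals turned the sign of Pbx2 (−0.0626) and Meis2 (−0.11), neither of them called. Pknox1 was no longer past the threshold on the adjusted p of edgeR's quasi-likelihood test with no filter (log2 ratio −0.62, adjusted p = 0.118), with the day −2 libraries alone (−0.63, adjusted p = 0.374) or at a threshold of 0.05 (−0.62). The other causes were not tested.

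The replica numbers of C and P cells were not taken as a pairing. Deviations of equally numbered replicas correlated at 0.209 at day −2 and between −0.355 and −0.0523 for other pairs of conditions (0.438, and −0.752 to 0.137, among well-expressed genes). Whether replicas of equal number shared a batch is not given by the sample titles and was not tested. A replicate block gave 597 calls, 24 named differences between the days and a log2 ratio of Pknox1 of −0.62 (adjusted p = 0.131).

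Leaving out 1 of the 8 libraries at a time gave 188 to 4380 calls, 188 to 3997 of them past the ratio in the P libraries left, 66 to 286 list members and 58 to 97 named genes. The lowest counts came without a replica of C cells (193 and 188 calls), the highest without replica 2 of P cells, and leaving out a day 1 library gave 530 to 573. Named calls at day 1 ranged from 15 to 49 and named differences between the days from 12 to 82 (60 without replica 1 of P cells). Pknox1 ranged from −0.67 to −0.57, with an adjusted p by edgeR of 0.0162 and 0.00177 without replica 1 and 2 of P cells, 0.368 and 0.318 without those of C cells, and 0.139 to 0.170 without a day 1 library. The sign turned for TALE genes that were not called, namely Pbx4 (−0.65 to 0.34), Pbx3 (−0.70 to 0.0860), Meis1 (−1.39 to 0.0346), Tgif1 (−0.48 to 0.0259), Pknox2 (−0.17 to 0.0833) and Meis2 (−0.0730 to 0.20). Named genes lost without replica 1 of P cells were Meis3, Hoxb8, Hoxb2, Id3, Klf2, Cdkn1a, Per1, Mvk, Bbc3, Sesn2 and Rps28, and without replica 2 Cdkn2c.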

Other observations

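A few genes had counts in every library of 1 kind of cell and none in the other at day −2. They were chosen after their values were seen, as those with at least 10 counts in both libraries of one group and 0 in both of the other, and 8 genes met this, 2 present in P cells and 6 in C cells. Besides Epha3 and Wnt10a, described above, the steroid dehydrogenase gene Hsd3b6 had 10 and 31 counts in P cells, at least 6.49-fold higher when C libraries are set to 3 counts each.

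The genes with counts in C cells alone included Sh2d1b1, an adaptor of signalling in immune cells, with 75 and 85 counts, at least 25.3-fold lower in P cells. Sh2d1b1 was at 0 in all 4 libraries of day 1. Plet1, a surface protein of placental and epithelial progenitors, had 33 and 38 counts (at least 11.2-fold lower), and Pate14 had 17 and 33 (at least 8.02-fold lower). Tmprss11f, a serine protease of the cell surface, had 23 and 10 counts (at least 5.10-fold lower), and Mmp12, the macrophage metalloelastase, had 11 and 20 (at least 4.96-fold lower). All 8 genes were called in the test of day −2.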
